A study of Mus musculus with 12 samples.

Results

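CD103-CD11b+ and CD103+CD11b- dendritic cells (DCs) of the gut were compared with each other in mice that lack Cbfβ in CD11c-expressing cells. The comparison used the 6 libraries labelled Cbfb-cKO, 3 of each subset, out of 12 in the series, and took in the 19082 genes that reached 5 counts in 1 or more of those 6 libraries. Cbfb-cKO mice carried floxed *Cbfb* alleles and CD11c-Cre, so both subsets compared here had the same genotype. The other 6 libraries, again 3 of each subset, were labelled wild type, are called control here, and entered the comparison between genotypes. The strain of all mice was labelled as mixed background, and no age was given for the mice that were sequenced. CD11c-Cre is driven by the promoter of *Itgax*, which is active in DCs, in many tissue macrophages and in some activated lymphocytes, so deletion is not limited to DCs. DCs were gated as CD45+CD64-CD11c+MHC-II+ and small numbers of cells were sorted on CD103 and CD11b. CD103+CD11b+ DCs, the other large cDC2 population of the small intestine in mice with Cbfβ, are in neither sorted subset. The paper reports that these cells were strongly reduced in the mutant mice, while CD103-CD11b+ DCs rose in relative number. Whether the CD103-CD11b+ gate held the same cells in both genotypes was not tested.

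Conventional DCs fall into cDC1s and cDC2s, which are distinct lineages. In the gut, CD103+CD11b- DCs are cDC1s: they depend on IRF8 and BATF3, carry XCR1 and CLEC9A, and are known for presenting antigen of dead cells to CD8 T cells. CD11b+ DCs are mostly cDC2s, which carry SIRPα, depend on IRF4 and present antigen to CD4 T cells, and the CD103-CD11b+ fraction also holds cells related to monocytes. Runx proteins are transcription factors that bind DNA as dimers with Cbfβ, so that loss of Cbfβ disables RUNX1, RUNX2 and RUNX3 together. The question asked here was which differences between the subsets were present when Cbfβ was missing from both.

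Counts on genes ran from 2161929 to 4271988 in the 3 CD103-CD11b+ libraries and from 2650949 to 4312911 in the 3 CD103+CD11b- libraries, with replicate 3 the smallest of each. Values are given as CPM, the read count of a gene scaled to a common library total after TMM normalization in edgeR. *Cbfb*, the targeted gene, had 223, 216 and 299.5 CPM in the CD103+CD11b- libraries and 177, 166 and 273 CPM in the CD103-CD11b+ libraries, and its means in the control libraries were 216 and 185 CPM. Counts over the whole gene include transcript outside the deleted part, so they do not check the deletion. The sort itself was visible in the RNA. *Itgae*, which encodes CD103, had 664, 665 and 801 CPM in CD103+CD11b- DCs and 80.4, 38.3 and 30.6 CPM in CD103-CD11b+ DCs, whereas *Itgam*, which encodes CD11b, had 6.06, 11 and 7.67 and 119.8, 144 and 223 CPM. The groups did not overlap for either gene, which describes the gate and is not a finding. *Itgax* (CD11c) had means of 714 and 969 CPM in the same order, and the class II gene *H2-Ab1* had 616 and 632 CPM. In bulk samples such as these, fewer cells of a type and less RNA per cell cannot be told apart.

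In Cbfb-cKO mice, 1901 genes were higher in CD103-CD11b+ DCs and 1648 were higher in CD103+CD11b- DCs, which is 9.96% and 8.64% of the genes tested. A gene was called when its false discovery rate (the p of the quasi-likelihood test of edgeR, adjusted over all tested genes by the method of Benjamini and Hochberg) was under 0.05 and its fold change was over 1.3. All log2 fold changes are CD103-CD11b+ over CD103+CD11b-, so that positive values are higher in CD103-CD11b+ DCs, and are given with the standard error (SE) of the fit. The median log2 fold change was 2.02 among genes higher in CD103-CD11b+ DCs, or 1.91 with the 76 genes that had no count in any CD103+CD11b- library set at their lower bound. It was -0.90 among genes higher in CD103+CD11b- DCs, or -0.89 with the 28 genes absent from all CD103-CD11b+ libraries at their bound. All tested genes had a median of 0.05. With a fold change over 5 and a false discovery rate under 0.01, 399 genes were higher in CD103-CD11b+ DCs against 171 in CD103+CD11b- DCs. Same-numbered cKO libraries of the subsets deviated together, which control libraries did not do for every number. In a fit to all 12 libraries with the replicate number as a blocking factor (the replicate block), 2592 genes were higher in CD103-CD11b+ DCs against 2034 in CD103+CD11b- DCs. A blocked fit to the 6 cKO libraries alone called 3179 and 2307. Without replicate 1 of the CD103+CD11b- libraries the counts fell to 1188 and 1022, and without replicate 2 of the CD103-CD11b+ libraries they were 1233 and 1062.

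**Figure D1:**
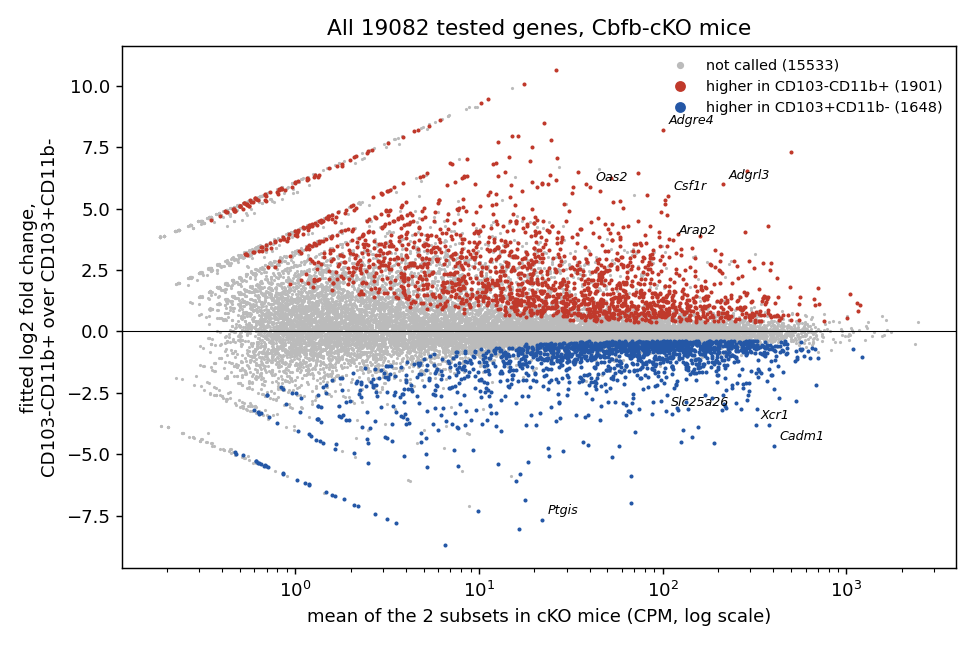
Subset difference of the 19082 tested genes in Cbfb-cKO mice. The horizontal axis gives the mean of both subsets in CPM on a log scale and the vertical axis the fitted log2 fold change, and the 1901 red and 1648 blue points are the genes called higher in CD103-CD11b+ and in CD103+CD11b- DCs. Straight rows of points at the left are genes with no count in 1 subset, whose fitted fold change depends on the prior count.

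The protein-coding gene with the smallest p among those higher in CD103-CD11b+ DCs was *Adgrl3* (ENSMUSG00000037605, chromosome 5, 81020138 to 81825133, build GRCm38), which encodes latrophilin-3, an adhesion G protein-coupled receptor best known at synapses. It had 7.18, 7.34 and 4.44 CPM in CD103+CD11b- DCs and 319.6, 479.9 and 458 CPM in CD103-CD11b+ DCs, for a log2 fold change of 6.01 ± 0.26 (SE, adjusted p = 1.08e-06). The lowest CD103-CD11b+ library lay far above the highest CD103+CD11b- library. *Arap2* (ENSMUSG00000037999), a GTPase-activating protein for Arf6, followed with 14.6, 15.4 and 18.2 CPM against 229.5, 198 and 209.8 CPM and a log2 fold change of 3.73 ± 0.18 (SE, adjusted p = 1.14e-06). Another adhesion receptor of myeloid cells, *Adgre4*, had 0.225, 1.22 and 0.404 CPM in CD103+CD11b- DCs, close to no expression, and 175, 229 and 195 CPM in CD103-CD11b+ DCs. The log2 fold change was 8.23 ± 0.41 (SE, adjusted p = 1.66e-06). The other 7 of the first 10 genes were *Chn2* (a Rac GTPase-activating protein), the interferon-induced *Oas2*, *Ddx58* (RIG-I) and *Mndal*, *Tlr2* (a receptor for bacterial lipoproteins), the lectin *Clec4a2* and the Notch coactivator *Maml3*. Their log2 fold changes ran from 2.45 for *Chn2* to 6.03 for *Clec4a2*, and their groups did not overlap. The groups were apart for 1816 of the 1901 called genes on this side and 1640 of the 1648 on the other. For a called gene, here and below, groups that do not overlap therefore add little to the call.

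Among genes higher in CD103+CD11b- DCs, the mitochondrial carrier gene *Slc25a26*, which imports S-adenosylmethionine, had the smallest p. It had 192, 199.6 and 172 CPM in CD103+CD11b- DCs and 19.7, 20.7 and 18.9 CPM in CD103-CD11b+ DCs, with a log2 fold change of -3.25 ± 0.12 (SE, adjusted p = 3.64e-07). The values within each subset spread little beside the distance between them. *Ttc39a*, a tetratricopeptide repeat gene, had 245, 246 and 232 against 10.8, 9.52 and 11.7 CPM and a log2 fold change of -4.5 ± 0.21 (SE, adjusted p = 1.08e-06). *Esyt3*, an extended synaptotagmin that tethers the endoplasmic reticulum to the plasma membrane, had 121, 141 and 137 CPM in CD103+CD11b- DCs and 0.665, 1.62 and 0.511 CPM in CD103-CD11b+ DCs. It was thus near the detection limit in the second subset, and its log2 fold change was -7.0 ± 0.36 (SE, adjusted p = 1.77e-06). The remaining genes of the first 10 were *Slc9a9* (an endosomal sodium-proton exchanger), *Cadm1* (a cell adhesion molecule and cDC1 marker), *Lrrc1*, *Fndc7*, *Alms1*, *St3gal5* (the GM3 ganglioside synthase) and *Gdpd5*, with log2 fold changes between -4.65 for *Cadm1* and -2.12 for *Gdpd5*.

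Promoters of these leading genes are shown because they are the stretches on which Runx dimers and their partners could act, and because these genes had the smallest p in each direction. Sequences are the 250 bases before the first listed transcription start in RefSeq (build GRCm38.p6), 5′ to 3′ on the gene's strand, for the first 2 genes of each direction that have an entry. Capitals mark a match to TGANTCA, the core of AP-1 sites.
*Adgrl3*, chr5:81020321-81020570, plus strand: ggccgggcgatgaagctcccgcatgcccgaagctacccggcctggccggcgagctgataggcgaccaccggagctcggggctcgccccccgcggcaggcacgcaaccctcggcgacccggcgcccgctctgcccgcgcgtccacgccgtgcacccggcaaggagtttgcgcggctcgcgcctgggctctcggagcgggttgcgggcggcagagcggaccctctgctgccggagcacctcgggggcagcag
*Arap2*, chr5:62766178-62766427, minus strand: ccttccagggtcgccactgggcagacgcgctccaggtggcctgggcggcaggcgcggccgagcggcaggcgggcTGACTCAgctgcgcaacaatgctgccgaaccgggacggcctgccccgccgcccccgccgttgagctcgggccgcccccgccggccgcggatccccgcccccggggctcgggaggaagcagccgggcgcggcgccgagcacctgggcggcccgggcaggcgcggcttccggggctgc
*Ttc39a*, chr4:109415397-109415646, plus strand: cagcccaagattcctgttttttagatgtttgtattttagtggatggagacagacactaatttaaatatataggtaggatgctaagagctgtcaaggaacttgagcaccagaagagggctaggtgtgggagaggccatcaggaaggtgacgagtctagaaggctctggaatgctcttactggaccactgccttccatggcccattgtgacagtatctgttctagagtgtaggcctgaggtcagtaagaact
*Slc9a9*, chr9:94669642-94669891, plus strand: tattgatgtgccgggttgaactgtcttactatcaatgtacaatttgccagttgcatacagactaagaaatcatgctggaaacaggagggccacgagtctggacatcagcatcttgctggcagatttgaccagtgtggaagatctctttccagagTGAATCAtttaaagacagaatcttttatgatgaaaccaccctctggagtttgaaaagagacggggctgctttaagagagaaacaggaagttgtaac
The windows were searched on both strands for the Runx core TGTGGT, for the composite PU.1-IRF element (GGAA and GAAA with 2 free bases between), which is used by IRF4 and IRF8, and for TGANTCA. *Arap2* held TGACTCA from -176 to -170 and *Slc9a9* held TGAATCA from -96 to -90, counted from the transcription start, and none of the 4 windows held the Runx core or the PU.1-IRF element. Of the 11936 tested genes with a promoter entry, 11.2% held TGTGGT, 2.15% the PU.1-IRF element and 4.65% held TGANTCA. Among the 1250 such genes higher in CD103-CD11b+ DCs the shares were 12.7%, 2.80% and 6.32%, and among the 1186 higher in CD103+CD11b- DCs they were 10.4%, 2.02% and 4.47%. A match describes letters and not a bound site, and no match says nothing of more distant enhancers.

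Genes that mark the cDC1 and cDC2 lineages separated by subset in the absence of Cbfβ. Of 20 cDC1 markers tested, 17 were higher in CD103+CD11b- DCs and none in CD103-CD11b+ DCs, with a median log2 fold change of -2.06. The chemokine receptor gene *Xcr1* had 528, 558 and 702 CPM in CD103+CD11b- DCs and 41.9, 16 and 74 CPM in CD103-CD11b+ DCs. *Clec9a*, a receptor for actin exposed on dead cells, had 457, 486 and 494 and 57.4, 23.7 and 80.2 CPM. The groups lay far apart for both genes, and the log2 fold changes were -3.80 ± 0.60 (SE, adjusted p = 0.00138) for *Xcr1* and -3.18 ± 0.38 (SE, adjusted p = 0.000257) for *Clec9a*. Neither gene was at 0 in CD103-CD11b+ DCs, and replicate 2 was the lowest of that subset for both. *Tlr3*, which senses double-stranded RNA, had 519, 530.5 and 711 against 78, 36 and 87.3 CPM, and *Cd8a* had 218, 221 and 223 against 48.7, 15.8 and 4.08 CPM. *Batf3*, a factor that cDC1s require, differed less, with 116, 118 and 138 CPM against 71.5, 83.3 and 94.5 CPM and a log2 fold change of -0.58 ± 0.15 (SE, adjusted p = 0.0193). Its call was lost without replicate 3 of the CD103+CD11b- libraries, or without replicate 1 or 2 of the CD103-CD11b+ libraries, with adjusted p = 0.0779, 0.0731 and 0.0573. The 3 markers that were not called were *Wdfy4*, *Gcsam* and *Id2*. *Wdfy4*, needed for cross-presentation, had a log2 fold change of -0.52 ± 0.24 (SE, adjusted p = 0.15), which passed the test with the replicate block (adjusted p = 0.0377) or without replicate 3 of the CD103-CD11b+ libraries (adjusted p = 0.0289).

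Of 20 cDC2 markers, 15 were higher in CD103-CD11b+ DCs and none in CD103+CD11b- DCs, with a median log2 fold change of 2.76. *Sirpa*, the inhibitory receptor that binds CD47, had 47.8, 40.4 and 5.25 CPM in CD103+CD11b- DCs and 459.9, 503 and 622 CPM in CD103-CD11b+ DCs. Its lowest value, in replicate 3 of the CD103+CD11b- libraries, stood apart from the other 2 of that subset, and the log2 fold change was 4.05 ± 0.56 (SE, adjusted p = 0.000629). *Irf4*, the factor that cDC2s require, had 37.7, 54.3 and 68.2 CPM against 273, 223 and 495 CPM and a log2 fold change of 2.63 ± 0.32 (SE, adjusted p = 0.000276). *Cd209a*, a lectin of the DC-SIGN family, had 10.3, 5.38 and 2.02 and 116, 119 and 188 CPM, and *Zeb2*, a repressor that favours cDC2s over cDC1s, had 71.2, 75.8 and 26.2 and 381, 422 and 487 CPM. No value of 1 subset reached those of the other for these genes. *Csf1r*, the M-CSF receptor, had 1.57, 11 and 0 CPM in CD103+CD11b- DCs, 1 library of which held no read, and 204, 260.0 and 166 CPM in CD103-CD11b+ DCs. The 5 cDC2 markers that were not called were *Clec10a*, *Klf4*, *Notch2*, *Esam* and *S100a4*. *Notch2*, whose signal CD103+CD11b+ cDC2s need, had means of 680.3 CPM in CD103+CD11b- and 726 CPM in CD103-CD11b+ DCs, and its log2 fold change of 0.09 was -0.04 without replicate 3 of the CD103-CD11b+ libraries. *Klf4* had a log2 fold change of 1.20 ± 0.49 (SE, adjusted p = 0.111), and with the replicate block it was higher in CD103-CD11b+ DCs (adjusted p = 0.00324), as it was without replicate 3 of the CD103+CD11b- libraries (1.99, adjusted p = 0.0163).

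**Figure D2:**
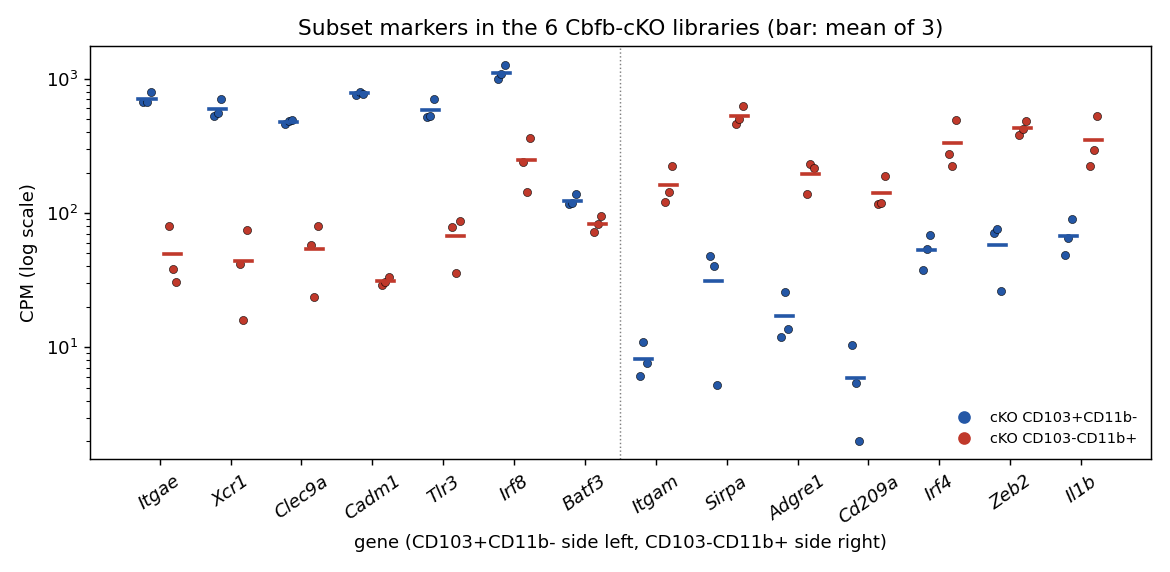
Sort markers and lineage markers in the 6 Cbfb-cKO libraries, in CPM on a log scale. Each point is 1 library and each bar the mean of 3. Genes to the left of the dotted line were higher in CD103+CD11b- DCs (blue) and genes to the right higher in CD103-CD11b+ DCs (red), and no gene shown has overlapping groups.

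Of 14 genes shared by both cDC lineages, 2 were higher in CD103+CD11b- DCs and none in CD103-CD11b+ DCs, with a median log2 fold change of 0.11. With the replicate block the same 2 were called and *Bcl11a*, a factor of DC and lymphoid development, was higher in CD103-CD11b+ DCs (0.91, adjusted p = 0.0246). The blocked fit to the 6 cKO libraries alone and DESeq2 each called 2 on that side. *Flt3*, the cytokine receptor that supports DC development, had 456 ± 10.5 CPM in CD103+CD11b- DCs against 254 ± 41.7 CPM in CD103-CD11b+ DCs (SD, n = 3 each), and its call was lost without replicate 2 of the CD103-CD11b+ libraries (adjusted p = 0.0532). *Zbtb46*, a factor restricted to conventional DCs among myeloid cells, had a log2 fold change of -0.63 ± 0.20 (SE, adjusted p = 0.0457). That call was lost without any 1 of the 6 cKO libraries, without replicate 1 or 2 of the control CD103+CD11b- or replicate 2 of the control CD103-CD11b+ libraries (adjusted p from 0.0544 to 0.143), with RLE normalization (0.0542) and with another filter on low counts or none (0.0502 and 0.0618). The class II genes *H2-Aa*, *H2-Eb1* and *Cd74* had log2 fold changes of 0.17, 0.10 and 0.06, none of which passed the test.

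Transcription factors of DC lineages were called in both directions. Of 37 tested, 11 were higher in CD103-CD11b+ DCs against 7 in CD103+CD11b- DCs, and with the replicate block 17 and 7 were. The first count was 6 without replicate 1 and 7 without replicate 2 of the cKO CD103+CD11b- libraries, and the second was 3 without replicate 3 of those libraries or replicate 1 or 2 of the cKO CD103-CD11b+ libraries. *Irf8*, on which cDC1s depend, had 987, 1076 and 1269 CPM in CD103+CD11b- DCs and 241, 143 and 359 CPM in CD103-CD11b+ DCs, for a log2 fold change of -2.17 ± 0.36 (SE, adjusted p = 0.00183). *Mycl*, a MYC family member of cDC1s, had 341, 337 and 425 and 73.5, 40.6 and 68.4 CPM. Both genes had their groups apart. On the other side, *Prdm1* (BLIMP1) had 10.1, 20.3 and 13.3 CPM in CD103+CD11b- DCs and 202, 204 and 199 CPM in CD103-CD11b+ DCs, with a log2 fold change of 3.78 ± 0.67 (SE, adjusted p = 0.00283). *Bcl6*, which cDC1s need, was higher in CD103+CD11b- DCs with a log2 fold change of -1.14 ± 0.28 (SE, adjusted p = 0.0164), a call that was lost without replicate 3 of the CD103+CD11b- libraries (adjusted p = 0.0654) or replicate 1 or 2 of the CD103-CD11b+ libraries (adjusted p = 0.062 and 0.0659).

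Of 7 genes of the Runx-Cbfβ complex, *Runx3* and *Runx2* were called, both higher in CD103-CD11b+ DCs. *Runx3* had 221, 232 and 231 CPM in CD103+CD11b- DCs and 415, 434 and 629 CPM in CD103-CD11b+ DCs, with a log2 fold change of 1.11 ± 0.20 (SE, adjusted p = 0.00354). *Runx2* had 130.4, 161 and 70.2 and 296, 272 and 323 CPM and a log2 fold change of 1.3 ± 0.32 (SE, adjusted p = 0.0181). The groups did not overlap for either gene. *Runx1* had 1013 ± 118 and 1103 ± 347 CPM (SD, n = 3) in the same order, and its log2 fold change of 0.12 was smaller than the spread between replicates and was -0.11 without replicate 3 of the CD103-CD11b+ libraries. The log2 fold change of *Cbfb* was -0.26 ± 0.20 (SE, adjusted p = 0.381). *Runx1t1*, a corepressor gene of the list, was not called here, but it passed in the blocked fit to the 6 cKO libraries alone (2.67, adjusted p = 0.0157). In control mice the log2 fold changes were 0.21 for *Runx3* (adjusted p = 0.5) and -0.98 for *Runx2* (adjusted p = 0.0525), and the difference between the genotypes was not called for either (adjusted p = 0.235 and 0.055). For *Runx2* it was called with DESeq2 (2.25, adjusted p = 0.000296), with the likelihood ratio test (adjusted p = 0.000479), with the stricter filter on low counts or none (0.0409 and 0.0394) and without replicate 3 of the control CD103+CD11b- libraries (2.57, adjusted p = 0.0137).

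Of 25 paired receptors, which are activating or inhibitory receptors of myeloid cells that often occur as families, 17 were higher in CD103-CD11b+ DCs against 1 in CD103+CD11b- DCs. *Trem1*, which amplifies inflammatory signals, had no count in any CD103+CD11b- library and 41.4, 43.2 and 72.5 CPM in the CD103-CD11b+ libraries. Set against 3 counts in the smallest CD103+CD11b- library, this is at least 43.2-fold higher. *Siglece*, an inhibitory receptor for sialic acid, had 1.35, 2.2 and 0 CPM in CD103+CD11b- DCs and 86.8, 106 and 115 CPM in CD103-CD11b+ DCs. The inhibitory receptor genes *Cd300a* and *Pilra* were at 4.94, 8.07 and 6.05 and at 4.71, 2.69 and 3.23 CPM in CD103+CD11b- DCs. In CD103-CD11b+ DCs they were at 163, 131 and 272 and at 97.7, 109.8 and 149 CPM, with log2 fold changes of 4.88 ± 0.37 (SE, adjusted p = 1.44e-05) and 5.03 ± 0.39 (SE, adjusted p = 1.59e-05). These genes were thus at a few CPM or less in CD103+CD11b- DCs. The exception among the paired receptors was *Clec12a*, an inhibitory receptor for uric acid crystals, at -0.54 on the log2 scale (adjusted p = 0.0403), and its call was lost without any 1 of the CD103+CD11b- libraries of either genotype or replicate 1 or 3 of the cKO CD103-CD11b+ libraries (adjusted p from 0.0503 to 0.163), with RLE normalization (0.0516), with another filter on low counts or none (0.0537 and 0.0758) and in the 6 cKO libraries alone (0.0659).

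C-type lectin receptors, which bind sugars and other ligands of microbes and dead cells, were higher in CD103-CD11b+ DCs for 14 of 24 genes and in CD103+CD11b- DCs for 4, or for 2 without replicate 1 of the cKO CD103-CD11b+ libraries. The median log2 fold change was 2.67, or 2.63 with the gene listed at 0 at its bound. The inhibitory DCIR gene *Clec4a2* had 0.449, 0.978 and 0.404 CPM in CD103+CD11b- DCs and 39.9, 44.1 and 46 CPM in CD103-CD11b+ DCs. Its neighbour *Clec4a4* (DCIR2) had 0, 0.489 and 0.404 and 36.3, 41.3 and 35.2 CPM. With 3 reads in all CD103+CD11b- libraries, the ratio of *Clec4a4* was 140.1, with a 95% exact interval of 47.6 to 682 that covers counting error only. These genes and the Cd209 family are near-identical copies in part, so reads that fit more than 1 copy may have been removed by the limit on mapping quality. *Clec4e* (Mincle) had no count in CD103+CD11b- DCs and 7.53, 5.8 and 18.9 CPM in CD103-CD11b+ DCs, at least 8.87-fold higher, and its call was lost without replicate 1 or 3 of the CD103-CD11b+ libraries or any CD103+CD11b- library (adjusted p from 0.0532 to 0.0877). On the cDC1 side, *Ly75* (DEC-205), an uptake receptor, had 465, 535 and 502 CPM in CD103+CD11b- DCs and 96.6, 80.6 and 72 CPM in CD103-CD11b+ DCs.

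Fc and complement genes were higher in CD103-CD11b+ DCs for 14 of 18 members and in CD103+CD11b- DCs for 1, with a median log2 fold change of 3.36, or 3.23 with the gene listed at 0 at its bound. Without replicate 1 of the cKO CD103+CD11b- libraries 9 and 0 were called. *Fcer1g*, the signalling chain that activating Fc receptors share, had 8.98, 12.2 and 6.46 CPM in CD103+CD11b- DCs and 70.7, 89.4 and 116 CPM in CD103-CD11b+ DCs. The inhibitory Fc receptor gene *Fcgr2b* had 4.04, 12.2 and 8.07 and 87.3, 65.9 and 64.3 CPM, and the properdin gene *Cfp* had 71.8, 71.4 and 64.6 and 178, 177 and 204 CPM. The 3 genes had log2 fold changes of 3.29, 3.16 and 1.43. *Fcgrt*, the neonatal Fc receptor gene, was the member higher in CD103+CD11b- DCs, at -0.92 ± 0.21 (SE, adjusted p = 0.0121).

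Toll-like receptors were called in both directions. Of 20 genes for these receptors and their adaptors, 6 were higher in CD103-CD11b+ DCs against 3 in CD103+CD11b- DCs (8 and 5 under the replicate block). The 3 were *Tlr3* and the receptors for profilin of protozoa, *Tlr11* and *Tlr12*, which had log2 fold changes of -3.14, -2.09 and -3.02. *Tlr12* was at 356, 376 and 431 CPM in CD103+CD11b- DCs and at 54, 47.1 and 41.9 CPM in CD103-CD11b+ DCs. The 6 were *Tlr2*, *Tlr4*, *Tlr5*, *Tlr8*, *Ticam2* and *Ly86*. *Tlr2* had 4.27, 3.67 and 3.63 CPM in CD103+CD11b- DCs and 30.8, 26.9 and 33.7 CPM in CD103-CD11b+ DCs, and *Tlr5*, the flagellin receptor, had 1.12, 0.734 and 0 and 12.8, 7.43 and 12.8 CPM. Cytosolic NOD-like sensors and inflammasome genes were higher in CD103-CD11b+ DCs for 10 of 15 members and lower for none. *Nod1*, a sensor of peptidoglycan, had 20.9, 16.9 and 17.8 CPM in CD103+CD11b- DCs and 155, 135 and 115 CPM in CD103-CD11b+ DCs. *Nlrc4*, which forms an inflammasome on flagellin, had 4.27, 4.89 and 5.65 and 49.4, 53.2 and 49 CPM, and *Il18*, an inflammasome substrate, had 4.71, 3.18 and 6.05 and 29, 33.7 and 33.7 CPM. The log2 fold changes were 2.86 ± 0.22 (SE, adjusted p = 1.44e-05) for *Nod1*, 3.36 ± 0.30 (SE, adjusted p = 4.04e-05) for *Nlrc4* and 2.80 ± 0.39 (SE, adjusted p = 0.000696) for *Il18*.

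List counts also moved with the filter. When 5 or more counts were required in every cKO library, 12118 genes were tested. Of C-type lectin receptors 10 were then tested and 5 were higher in CD103-CD11b+ DCs, and of Fc and complement genes 7 were tested and 5 were higher. For cDC2 markers 9 of 12 tested were higher, for Toll-like receptors 2 of 15, for chemokine receptors 6 of 11, for cytokine receptors 6 of 28 and for cytokines 5 of 15. This filter leaves out, by its construction, genes near no count in 1 subset.

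**Figure D3:**
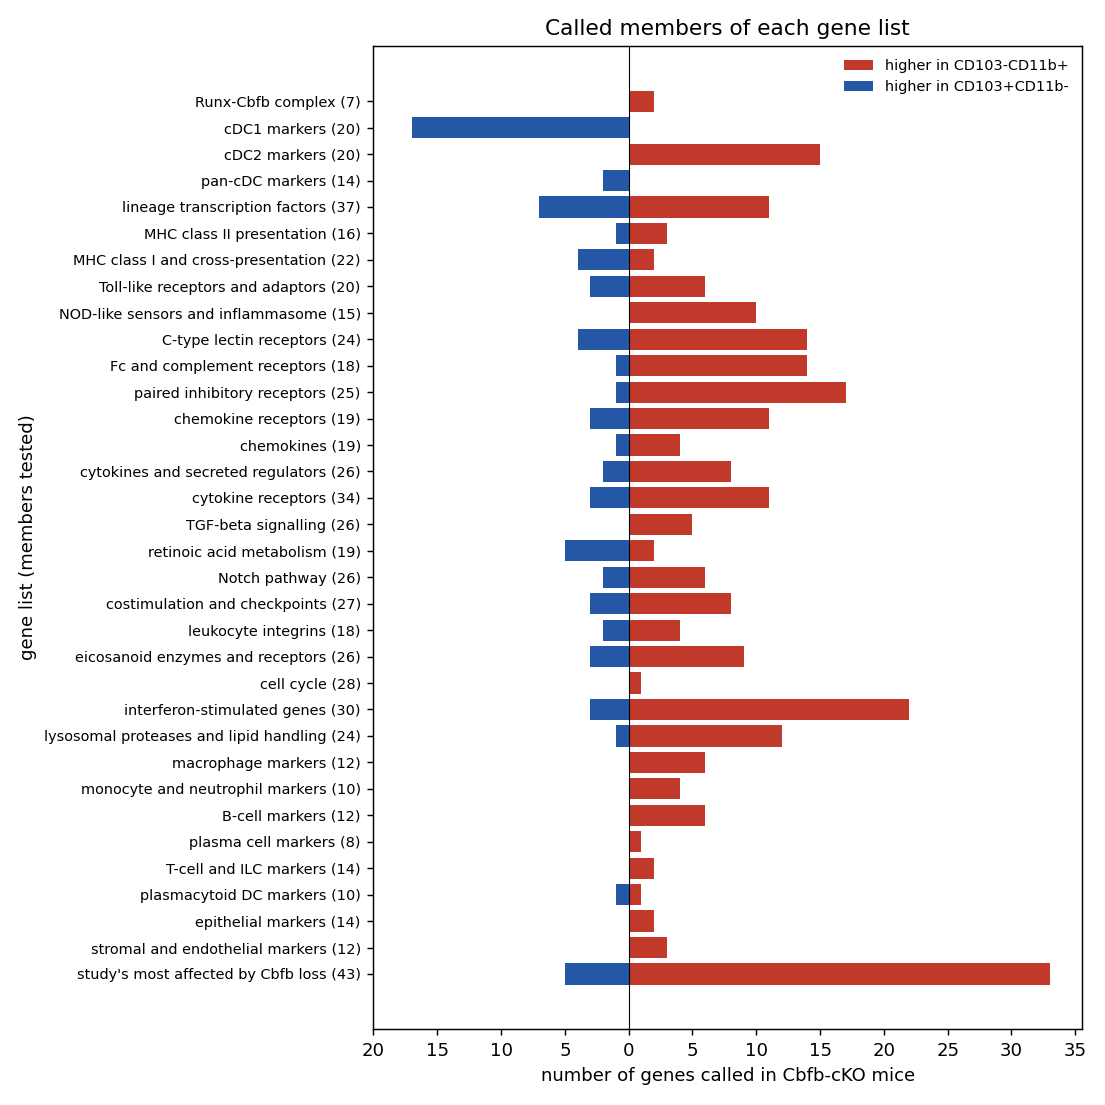
Called members of 34 gene lists in Cbfb-cKO mice. Red bars count genes higher in CD103-CD11b+ DCs, blue bars genes higher in CD103+CD11b- DCs, and the number after each name is the number of members tested. Bars to the right are longest for interferon-stimulated genes (22), paired receptors (17) and the list the study drew as most affected (33), and the bar to the left for cDC1 markers (17). Of all tested genes, 9.96% were called to the right and 8.64% to the left.

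Interferon-stimulated genes were higher in CD103-CD11b+ DCs for 22 of 30 members and in CD103+CD11b- DCs for 3. The median log2 fold change was 2.09, or 1.92 with *Ifit3b*, which had no count in CD103+CD11b- DCs, at its bound. The summed level of the list was 2336 to 2563 CPM in the CD103-CD11b+ libraries and 1246 to 1356 CPM in the CD103+CD11b- libraries, so that replicates of 1 subset were close to each other. *Ddx58*, the RIG-I sensor of viral RNA, had 6.74, 10.3 and 5.25 CPM in CD103+CD11b- DCs and 202, 213 and 194 CPM in CD103-CD11b+ DCs, for a log2 fold change of 4.74 ± 0.28 (SE, adjusted p = 3.89e-06). *Oas2*, which makes the activator of RNase L, had 0.673, 1.71 and 1.61 against 71.5, 88.5 and 77.1 CPM. *Rsad2* (viperin) had 2.02, 1.47 and 4.04 and 52.5, 49.9 and 40.3 CPM, and *Xaf1* had 5.16, 9.05 and 5.65 and 55.8, 54.1 and 37.3 CPM. No groups overlapped among these 4 genes. The 3 members on the other side were *Mx1*, *Oasl1* and *Irf9*. *Oasl1*, an inhibitor of Irf7 translation, had 40.9, 52.6 and 79.5 CPM in CD103+CD11b- DCs and 14.4, 19.3 and 16.9 CPM in CD103-CD11b+ DCs. *Irf9*, a subunit of the factor that interferon activates, was at -0.46 ± 0.09 (SE) on the log2 scale and fell below the fold limit without replicate 3 of the CD103+CD11b- libraries (-0.38). *Stat2*, *Irf7* and *Bst2* were not called and had log2 fold changes of -0.02, -0.11 and 0.02.

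Of 16 class II presentation genes, 3 were higher in CD103-CD11b+ DCs against 1 in CD103+CD11b- DCs (3 and 2 under the replicate block or without replicate 3 of the cKO CD103-CD11b+ libraries). The 1 of 16 is not above the 8.64% share of all tested genes on that side. The 3 were *H2-DMb2* and *H2-Oa*, which edit the peptides loaded on class II, and the endosomal protease gene *Lgmn*, with log2 fold changes of 1.01, 0.87 and 1.61. *H2-DMb2* had 79.9, 68.7 and 84.4 CPM in CD103+CD11b- DCs and 136, 136 and 198 CPM in CD103-CD11b+ DCs. Of 22 class I and cross-presentation genes, 4 were higher in CD103+CD11b- DCs against 2 in CD103-CD11b+ DCs, and with the replicate block 9 and 3 were. Without replicate 3 of the cKO CD103-CD11b+ libraries 8 and 2 were. The 2 of 22 is near the 9.96% share of all tested genes higher in CD103-CD11b+ DCs. The peptide transporter genes *Tap1* and *Tap2*, the immunoproteasome gene *Psmb9* and *Rab43*, a GTPase of cross-presentation, made up the 4, with log2 fold changes of -0.80, -0.71, -0.84 and -1.32. *Rab43* had 124, 133 and 138 CPM in CD103+CD11b- DCs and 48.5, 44.3 and 66.4 CPM in CD103-CD11b+ DCs. The 2 were *Cybb*, the catalytic subunit of the phagocyte oxidase, and *Cd1d1*, which presents lipids to NKT cells. *Cd1d1* had 25.8, 21.8 and 26.2 CPM in CD103+CD11b- DCs and 109.9, 152 and 173 CPM in CD103-CD11b+ DCs, for a log2 fold change of 2.56 ± 0.26 (SE, adjusted p = 7.99e-05). *March1*, the ubiquitin ligase that removes class II from the surface, was the class II gene on the other side, at -0.62, a call lost without replicate 3 of the CD103+CD11b- libraries (adjusted p = 0.0734) or replicate 1 or 2 of the CD103-CD11b+ libraries (0.067 and 0.0761).

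Costimulatory and checkpoint genes were called for 8 of 27 members on the CD103-CD11b+ side and for 3 on the other, where the share over all tested genes was 8.64%. *Tnfsf8* (CD30 ligand) had 2.69, 1.957 and 2.83 CPM against 36.8, 37.8 and 39.3 CPM, and *Btla*, an inhibitory receptor of cDC1s, had 380.5, 382 and 442 against 176, 98.9 and 139.9 CPM. *Cd80*, *Cd86* and *Cd40* were not called, with log2 fold changes of 0.53, -0.07 and -0.04.

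Cytokine genes were higher in CD103-CD11b+ DCs for 8 of 26 members and in CD103+CD11b- DCs for 2, and with the replicate block 10 and 4 were. The 2 of 26 is near the 8.64% share of all tested genes on that side. The 8 became 5 without replicate 1 or 3 of the cKO CD103+CD11b- libraries. The 2 were *Il12b*, the p40 subunit of IL-12 and IL-23, and *Lif*. *Il12b* had 61.1, 100.3 and 65 CPM in CD103+CD11b- DCs and 1.11, 3.71 and 5.11 CPM in CD103-CD11b+ DCs, with a log2 fold change of -4.61 ± 0.43 (SE, adjusted p = 4.71e-05). *Il1b* had 48.3, 64.6 and 89.6 CPM in CD103+CD11b- DCs and 225, 296 and 531 CPM in CD103-CD11b+ DCs, and *Il1rn*, which encodes the IL-1 receptor antagonist, had 1.8, 5.38 and 0.807 and 94.8, 105 and 142 CPM. Thus both the cytokine and its antagonist were higher in CD103-CD11b+ DCs, with log2 fold changes of 2.38 ± 0.33 (SE, adjusted p = 0.000621) and 5.32 ± 0.45 (SE, adjusted p = 2.52e-05). *Il22ra2*, the soluble IL-22 binding protein, was at 0.898, 4.4 and 2.02 CPM in CD103+CD11b- DCs and at 5.09, 7.2 and 17.9 CPM in CD103-CD11b+ DCs. Those values lie close without overlapping, and the log2 fold change of 1.91 ± 0.62 (SE, adjusted p = 0.0527) missed the test, which it passed with the replicate block (adjusted p = 0.0319), DESeq2 (0.00356), the likelihood ratio test (0.00512), filterByExpr (0.0467) and no filter on low counts (0.0441). It also passed without replicate 2 of the CD103+CD11b- libraries (2.77, adjusted p = 0.033), replicate 1 of the CD103-CD11b+ libraries (2.26, adjusted p = 0.0392) or replicate 2 of the control CD103-CD11b+ libraries (1.90, adjusted p = 0.0449). Control libraries of both subsets had means of 186 and 184 CPM.

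Receptors for cytokines were higher in CD103-CD11b+ DCs for 11 of 34 members and in CD103+CD11b- DCs for 3. The 3 of 34 is near the 8.64% share of all tested genes on that side. The second count was 1 without replicate 3 of the cKO CD103+CD11b- or replicate 1 of the cKO CD103-CD11b+ libraries or in the 6 cKO libraries alone, and 0 without replicate 2 of the cKO CD103-CD11b+ libraries. *Csf3r*, the G-CSF receptor, had 2.92, 3.18 and 1.61 CPM in CD103+CD11b- DCs and 83.5, 131 and 101 CPM in CD103-CD11b+ DCs, and the decoy receptor gene *Il1r2* had 37.3, 23.2 and 66.2 and 233, 242 and 646 CPM. *Il1r2* was highest in replicate 3 of both subsets. Chemokine receptors were called for 11 of 19 members on the CD103-CD11b+ side and 3 on the other, which were *Xcr1*, *Ccr9* and *Cxcr3*. *Ccr9*, the gut-homing receptor, had 224, 222 and 187 CPM in CD103+CD11b- DCs and 91.7, 35.5 and 38.8 CPM in CD103-CD11b+ DCs. *Ccr1*, a receptor of monocytes and neutrophils, had 6.06, 2.2 and 1.21 and 92.4, 121 and 269 CPM, and *Ccr6*, which guides cells to the epithelium over lymphoid follicles, had 1.8, 0.978 and 1.21 and 61.4, 21.1 and 9.19 CPM. The log2 fold changes were -1.92 ± 0.39 (SE, adjusted p = 0.0061) for *Ccr9*, 5.54 ± 0.53 (SE, adjusted p = 5.77e-05) for *Ccr1* and 4.49 ± 0.78 (SE, adjusted p = 0.00267) for *Ccr6*, and the 3 CD103-CD11b+ values of *Ccr6* were spread widely. *Ccr7*, which guides migration to lymph nodes, had a log2 fold change of 0.15 ± 0.45 (SE, adjusted p = 0.839) and was not called. Among 19 chemokines, 4 were higher in CD103-CD11b+ DCs (*Ccl3*, *Ccl6*, *Ccl9* and *Cxcl2*) and 1 in CD103+CD11b- DCs, the CXCR3 ligand *Cxcl9* at 263, 253 and 443 against 89.7, 112 and 142 CPM. Without replicate 3 of the cKO CD103+CD11b- libraries 4 and 2 were called.

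Enzymes and receptors of eicosanoids, lipid mediators made from arachidonic acid, were higher in CD103-CD11b+ DCs for 9 of 26 members and in CD103+CD11b- DCs for 3. *Ptgs2* (COX-2) had 36.4, 56.2 and 12.9 CPM in CD103+CD11b- DCs and 418, 498 and 1214 CPM in CD103-CD11b+ DCs, and *Pla2g4a*, which releases arachidonic acid, had 8.98, 8.56 and 8.48 and 58.3, 78 and 67.9 CPM. *Ptgis*, the prostacyclin synthase, had 48.9, 43.8 and 39.1 CPM in CD103+CD11b- DCs and 2 reads in all in CD103-CD11b+ DCs, a ratio of 242 with a 95% exact interval of 66.5 to 2001. *Tbxas1*, the thromboxane synthase, and *Ptger2*, a receptor for prostaglandin E2, were the other 2, with log2 fold changes of -1.59 and -2.91. *Ptger3*, another receptor for prostaglandin E2, was higher in CD103-CD11b+ DCs with a log2 fold change of 4.52 ± 0.54 (SE, adjusted p = 0.00024).

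TGFβ signalling genes were higher in CD103-CD11b+ DCs for 5 of 26 members and in CD103+CD11b- DCs for none, and with the replicate block 8 were, against 3 without replicate 2 of the cKO CD103-CD11b+ libraries. *Smad7*, a feedback inhibitor, had 46.5, 44 and 68.2 CPM in CD103+CD11b- DCs and 149, 161 and 181 CPM in CD103-CD11b+ DCs, for a log2 fold change of 1.63 ± 0.17 (SE, adjusted p = 9.55e-05). The others were *Acvr2a* and *Tgfbr1* (receptor kinases), *Ski* (a corepressor) and *Nrros* (which presents latent TGFβ), and the calls of *Tgfbr1* and *Ski* were not stable. That of *Tgfbr1* was lost without replicate 2 or 3 of the CD103+CD11b- libraries, replicate 1 or 2 of the CD103-CD11b+ libraries or replicate 2 of the control CD103+CD11b- libraries (adjusted p from 0.0524 to 0.0987), and that of *Ski* without replicate 1 or 2 of the CD103+CD11b- or replicate 2 or 3 of the CD103-CD11b+ libraries (from 0.051 to 0.0854). Genes of retinoic acid metabolism were higher in CD103+CD11b- DCs for 5 of 19 members and in CD103-CD11b+ DCs for 2 (5 and 4 under the replicate block, and 5 and 6 without replicate 3 of the cKO CD103-CD11b+ libraries). The 2 of 19 is near the 9.96% share of all tested genes on that side. *Aldh1a2* (RALDH2), the retinoic acid producing enzyme of gut DCs, had 296, 374 and 248 CPM in CD103+CD11b- DCs and 78.6, 99.4 and 88.8 CPM in CD103-CD11b+ DCs. *Cyp26b1*, which degrades retinoic acid, had 551, 664 and 1028 and 74, 237 and 26.6 CPM. Both were higher in CD103+CD11b- DCs, with log2 fold changes of -1.78 ± 0.25 (SE, adjusted p = 0.000624) and -2.72 ± 0.61 (SE, adjusted p = 0.011). *Stra6l*, a transporter for retinol, went the other way, with 29, 27.9 and 17.4 CPM in CD103+CD11b- DCs and 232, 247 and 311 CPM in CD103-CD11b+ DCs. Of 26 Notch pathway genes, 6 were higher in CD103-CD11b+ DCs, among them *Maml3* (2.51) and the modifier of Notch *Mfng* (0.83), and 2 in CD103+CD11b- DCs, *Rbpj* (-0.72), the factor through which Notch acts, and *Psen2* (-1.63). The 2 of 26 is near the 8.64% share of all tested genes on that side. The 6 became 3 without any 1 of the cKO CD103+CD11b- libraries or without replicate 2 of the cKO CD103-CD11b+ libraries, and ran up to 8 without replicate 3 of the latter. The 2 became 1 without replicate 2 or 3 of the cKO CD103+CD11b- or replicate 1 or 2 of the cKO CD103-CD11b+ libraries.

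Leukocyte integrins other than the sort markers were called for 3 members on the CD103-CD11b+ side, *Itgad*, *Itgb3* and *Itgb5*, and for *Itga5* on the other. With the sort markers, the list counted 4 and 2, and the 2 became 1 without replicate 1 or 3 of the cKO CD103+CD11b- or replicate 1 of the cKO CD103-CD11b+ libraries and 4 without replicate 1 of the control CD103-CD11b+ libraries. *Itgad*, which encodes CD11d, had 46, 56.7 and 36.3 CPM in CD103+CD11b- DCs and 155, 168 and 187 CPM in CD103-CD11b+ DCs, for a log2 fold change of 1.87 ± 0.24 (SE, adjusted p = 0.000397). Antisense genes lie within *Itgad*, and reads were counted without strand. Reads over stretches that these genes share cannot be assigned by strand and may have been left out as ambiguous. Lysosomal and lipid handling genes were higher in CD103-CD11b+ DCs for 12 of 24 members and in CD103+CD11b- DCs for 1, *Cd36* (2 under the replicate block, with DESeq2, or without replicate 3 of the control or of the cKO CD103-CD11b+ libraries). *Ctsa*, a lysosomal carboxypeptidase, had 110.0, 115 and 129 CPM in CD103+CD11b- DCs and 239, 251 and 341 CPM in CD103-CD11b+ DCs, and *Gpnmb* had 0.898, 0.978 and 0 and 33.5, 87.3 and 35.2 CPM. Of 28 cell cycle genes, 1 was called, the replication helicase gene *Mcm4*, at 1.06 ± 0.26 (SE, adjusted p = 0.0172), and the list's median log2 fold change was 0.48. Without 1 library the list counted from 0 (without replicate 1 or 2 of the cKO CD103+CD11b- libraries) to 9 higher in CD103-CD11b+ DCs (without replicate 2 of the control CD103-CD11b+ libraries), and RLE normalization gave 4 and DESeq2 gave 7. With the replicate block, 10 cell cycle genes were higher in CD103-CD11b+ DCs against 1 in CD103+CD11b- DCs, among them *Mcm2*, *Mcm6* and *Top2a* (adjusted p = 0.0127, 0.00542 and 0.0186). Those 3 genes had log2 fold changes of 0.88, 0.74 and 1.08, and they also passed with RLE normalization, DESeq2, the likelihood ratio test and each other filter on low counts, and without replicate 2 of the control CD103-CD11b+ libraries (adjusted p = 0.0228, 0.0351 and 0.0256). *Mcm2* and *Mcm6* passed without replicate 2 of the cKO CD103-CD11b+ libraries (0.0381 and 0.0285), *Mcm6* without replicate 3 of the cKO CD103+CD11b- libraries (0.0397) and *Top2a* without replicate 3 of the control CD103-CD11b+ libraries (0.0276). The call of *Mcm4* was lost without replicate 1 or 2 of the CD103+CD11b- libraries (adjusted p = 0.0608 and 0.0653).

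Markers of other cell types moved with the subsets as well, and their part in the differences above was not tested. Of 12 macrophage markers, 6 were higher in CD103-CD11b+ DCs, with a summed level of 491 to 721 CPM in those libraries and of 154 to 202 CPM in the CD103+CD11b- libraries. *Fcgr1*, which encodes the CD64 that the gate excluded, had 5.32, 8.13 and 5.62 CPM in CD103-CD11b+ DCs and 0, 0.489 and 0 CPM in CD103+CD11b- DCs, and *Adgre1* (F4/80) had 138, 231 and 215 and 11.9, 25.9 and 13.7 CPM. Of 10 monocyte and neutrophil markers, 4 were higher in CD103-CD11b+ DCs, where the list summed to 213 to 258 CPM against 52.5 to 78.0 CPM, and 2 were without replicate 1 of the cKO CD103+CD11b- or replicate 2 of the cKO CD103-CD11b+ libraries. With 5 or more counts required in every cKO library, 3 of the macrophage and 2 of the monocyte and neutrophil markers were tested, and 1 of each was called. The neutrophil genes *S100a8* and *S100a9* were at 0 in all CD103+CD11b- libraries and at means of 1.49 and 2.17 CPM in CD103-CD11b+ DCs. Of 12 B-cell markers, 6 were higher in CD103-CD11b+ DCs, with sums of 711 to 1189 CPM against 363 to 400 CPM, so that the sums did not overlap. Without 1 library the list counted from 4 to 9. With the replicate block 7 were higher, among them *Fcer2a*, *Cd79b*, *Ms4a1* and *Bank1*. Their log2 fold changes in that fit ran from 1.299 for *Bank1* to 6.15 for *Fcer2a* (adjusted p from 0.004995 to 0.0113). *Cd79a*, a chain of the B-cell receptor, had 46.5, 5.34 and 3.57 CPM in the CD103-CD11b+ libraries and 0.673, 2.2 and 1.61 CPM in the CD103+CD11b- libraries, so that replicate 1 held most of it.

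Stromal and endothelial markers were uneven between libraries, with 3 of 12 higher in CD103-CD11b+ DCs (6 under the replicate block) and sums of 420 to 2746 CPM against 157 to 471 CPM. *Kdr*, an endothelial receptor, had 384, 479.7 and 32.7 CPM in CD103-CD11b+ DCs and 18.6, 25.4 and 15.7 CPM in CD103+CD11b- DCs, and *Pdgfra*, a fibroblast receptor, had 24.8, 226 and 17.9 and 0.673, 3.91 and 0 CPM. Without replicate 1 or 3 of the CD103+CD11b- libraries the call of *Kdr* was lost (log2 fold change 3.89 and 3.81, adjusted p = 0.0623 and 0.0596). That of *Pdgfra* was lost without the same 2 libraries (5.36 and 5.34, adjusted p = 0.0814 and 0.0654) or without replicate 2 of the CD103-CD11b+ libraries (3.68, adjusted p = 0.0824). The list counted 1 without either of those CD103+CD11b- libraries and 5 without replicate 3 of the CD103-CD11b+ libraries. T-cell and innate lymphoid markers were higher in CD103-CD11b+ DCs for 2 of 14, epithelial markers for 2 of 14 and plasma cell markers for 1 of 8, which was *Irf4*. *Thy1* was among the lymphoid genes, whereas *Cd3e*, a chain of the T-cell receptor complex, had 32.6, 12.1 and 3.06 CPM in CD103-CD11b+ DCs and 0.449, 4.89 and 14.9 CPM in CD103+CD11b- DCs. Under the replicate block 3 lymphoid genes were higher in CD103-CD11b+ DCs and 1, *Cd8b1*, in CD103+CD11b- DCs (-1.80, adjusted p = 0.0156). The epithelial genes were *Epcam* (at 26.4, 22.8 and 41.4 against 9.65, 18.6 and 6.46 CPM) and *Olfm4*. The epithelial list leaned the other way, with a median log2 fold change of -0.69, or -0.32 with genes at 0 at their bound. Its sums overlapped, at 77.3 to 117 CPM against 23.8 to 174 CPM. Under the replicate block *Krt20* (-3.35, adjusted p = 0.0743) and *Fabp1* (-2.43, adjusted p = 0.105) were not called. *Krt20* passed in the blocked fit to the 6 cKO libraries alone (-3.39, adjusted p = 0.0476). The calls of *Thy1*, *Epcam* and *Olfm4* were each lost without replicate 1 of the CD103+CD11b- libraries (adjusted p = 0.0758, 0.102 and 0.113) and without others as well. That of *Epcam* was also lost under the replicate block (0.0543), and in the blocked fit to the 6 cKO libraries alone *Thy1* was lost (0.0507) and *Epcam* was not (0.0447). Without the block, both were lost in the 6 cKO libraries alone (0.0943 for *Thy1* and 0.0758 for *Epcam*). Plasma cell markers counted 2 without replicate 3 of the control CD103+CD11b- or of the cKO CD103-CD11b+ libraries. Of 10 plasmacytoid DC markers, *Runx2* was higher in CD103-CD11b+ DCs and *Ccr9* in CD103+CD11b- DCs, and the list summed to 793 to 1142 CPM against 494 to 1004 CPM. With the replicate block, *Tcf4* and *Spib* joined the first side (adjusted p = 0.011 and 0.0357), as they did with DESeq2 (0.0382 and 0.0492), and *Tcf4* did so without replicate 3 of the CD103-CD11b+ libraries (0.0484).

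The same comparison was made in control mice, to see which subset differences were present with Cbfβ. There, 2262 genes (11.9%) were higher in CD103-CD11b+ DCs, whereas 1600 genes (8.38%) were higher in CD103+CD11b- DCs. The genes tested had to reach their count minimum in a cKO library, so genes that did so in control libraries alone are in none of these counts and shares. Of the 1901 genes higher in cKO CD103-CD11b+ DCs, 900 were called the same way in control mice, which is 47.3% of the cKO list and 39.8% of the control list. Of the 1648 genes higher in cKO CD103+CD11b- DCs, 949 were, which is 57.6% of the cKO list and 59.3% of the control list. Opposite calls were made for 12 genes. A missed call in 1 genotype is not a difference between them. Of the 990 genes called higher in CD103-CD11b+ DCs of cKO mice only, 804 had the same sign in control mice and the difference itself was called for 54, and of the 698 such genes on the CD103+CD11b- side, 628 had the same sign and 9 differed. Turned around, 94.1% of the control genes higher in CD103+CD11b- DCs and 93.9% of those higher in CD103-CD11b+ DCs kept their sign in cKO mice. The median log2 fold change of the latter was 2.68 in control and 1.70 in cKO mice, and this list was chosen by the control values.

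Of the 20 cDC1 markers, 17 were higher in CD103+CD11b- DCs in cKO mice and 16 in control mice, and the difference between genotypes was not called for any of them by edgeR's quasi-likelihood test, DESeq2 or the likelihood ratio test, and 1 had an unadjusted p under 0.05. The median of that difference over the list was -0.05 on the log2 scale. The median log2 fold change of cDC2 markers was 2.76 in cKO and 1.12 in control mice, with 15 and 9 called, and the difference was called for *Clec4a2* and *Clec4a4*. With the replicate block it was called for 4, which were these and *Irf4* (adjusted p = 0.0234) and *Il1b*, and with DESeq2 or the likelihood ratio test for 7. *Sirpa* had control values of 289, 217 and 136 CPM in CD103+CD11b- DCs and 371, 297 and 309 CPM in CD103-CD11b+ DCs, for a log2 fold change of 0.61 ± 0.49 (SE, adjusted p = 0.42). Its difference between genotypes, 3.44 ± 0.72 (SE, adjusted p = 0.069), missed the test, which it passed with DESeq2 (adjusted p = 0.000503), the likelihood ratio test (0.0012), no filter on low counts (0.0458) and without replicate 3 of the cKO CD103+CD11b- libraries (2.96, adjusted p = 0.0167). The call counts of other lists do not by themselves show a difference between genotypes. Paired receptors counted 17 and 1 in cKO mice and 9 and 3 in control mice, and the difference was called for 7 of 25 (8 with the replicate block, and 12 with DESeq2 or the likelihood ratio test). Interferon-stimulated genes counted 22 and 3 against 16 and 3, and the difference was called for 2 of 30 (3 with the replicate block or the likelihood ratio test, and 4 with DESeq2). Chemokine receptors counted 11 and 3 against 3 and 3, TGFβ signalling genes 5 and 0 against 10 and 0, and B-cell markers 6 and 0 against 1 and 1. The difference was called for 1 of 19 chemokine receptors (4 with the replicate block, DESeq2 or the likelihood ratio test). By the same edgeR test it was called for 0 of 26 TGFβ signalling genes, where 3 had an unadjusted p under 0.05 and DESeq2, the likelihood ratio test and the replicate block each called 1. It was called for 0 of 12 B-cell markers, where 4 had an unadjusted p under 0.05, DESeq2 and the likelihood ratio test each called 2, and the replicate block called 0.

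The subset difference itself differed between cKO and control mice for 132 genes, 0.692% of those tested, with 108 above 0 (shifted to CD103-CD11b+ DCs in cKO mice) and 24 below. At an unadjusted p under 0.05 there were 2216, and with the replicate block 301 were called. That block also pairs control libraries by number, and the 2 control libraries numbered 2 did not deviate together (r = -0.103). The number fell to 29 without replicate 1 of the cKO CD103+CD11b- libraries and rose to 219 without replicate 1 of the control CD103-CD11b+ libraries, and it moved by over 1.5 times without any 1 library except replicate 3 of the control CD103+CD11b- libraries. *Arap2* had the smallest p. It had 91.7, 83.1 and 64.2 CPM in control CD103+CD11b- DCs and 181, 203 and 151 CPM in control CD103-CD11b+ DCs, so that the change between genotypes lay mainly in CD103+CD11b- DCs, which had 16.1 CPM in cKO mice. Cbfb-cKO minus control, the log2 fold changes differed by 2.57 ± 0.23 (SE, adjusted p = 0.00421). *Flvcr1*, a transporter of heme and choline, had means of 93 and 97.3 CPM in control CD103+CD11b- and CD103-CD11b+ DCs and of 70.3 and 252 CPM in cKO mice, a difference of 1.78 ± 0.20 (SE, adjusted p = 0.00796). *Clec4a4*, *Pag1* (an adaptor that recruits the kinase Csk), *Itgad* and *Trem1* completed the 6 genes with the smallest p above 0, and at these limits the calls of all 6 held in every alternative fit that gave a value. A stricter false discovery rate of 0.01 left 8 of the 132 genes, and a fold over 5 as well left 5. *Trem1* was at 47.4, 32.3 and 23.5 CPM in control CD103+CD11b- DCs, and at 0 in all 3 cKO libraries of that subset. Among the 108 genes, the mean of CD103-CD11b+ DCs had moved more between genotypes for 51 and that of CD103+CD11b- DCs for 57.

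For 11 of the 108 genes the subset that was higher changed with the genotype. *Itgad* had 23, 19.3 and 12.8 CPM in control CD103+CD11b- DCs and 9.12, 5.22 and 7.15 CPM in control CD103-CD11b+ DCs, the reverse of its order in cKO mice. *Cdh17*, an intestinal cadherin, had 15.3, 15.6 and 13 and 6.79, 2.94 and 4 CPM in control mice and 6.96, 18.1 and 5.65 and 103, 88.7 and 47 CPM in cKO mice, in each case with the CD103+CD11b- libraries given first. Without replicate 1 of the cKO CD103+CD11b- libraries the call of *Cdh17* was lost (adjusted p = 0.0566). *Hpgds*, which makes prostaglandin D2, and the proton channel gene *Hvcn1* were of the same kind, with differences of 2.72 and 1.74. The call of the difference was lost for *Hvcn1* in 10 of 12 fits without 1 library and for *Hpgds* without replicate 1 of the control or of the cKO CD103+CD11b- libraries. Between the cKO subsets, *Hvcn1* lost its call without replicate 3 of the CD103+CD11b- libraries (adjusted p = 0.0628) or replicate 1 or 2 of the CD103-CD11b+ libraries (0.0643 and 0.0626). Another 8 genes were higher in CD103+CD11b- DCs of control mice and not called in cKO mice. Of these, *Rab30*, a small GTPase of the Golgi, had 71.8, 85.4 and 81.8 and 24.8, 17.3 and 13.2 CPM in control mice, and 86.9, 97.3 and 113 and 110.3, 110.3 and 94.5 CPM in cKO mice, where the groups overlapped. *Tmeff1* and *Mpzl2* had differences of 2.88 and 3.62, and that of *Mpzl2* was lost without replicate 1 of the cKO CD103+CD11b- libraries (adjusted p = 0.0543).

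Of the 24 genes below 0, 17 were higher in CD103+CD11b- DCs of cKO mice. *Slc25a26* had 78.4, 77.8 and 89.3 CPM in control CD103+CD11b- DCs and 19, 16.6 and 18.3 CPM in control CD103-CD11b+ DCs, so its higher level in cKO CD103+CD11b- DCs widened a gap that control mice had too. The difference was -1.06 ± 0.16 (SE, adjusted p = 0.0164). *Plcb3* (a phospholipase C), *Acss1* (a mitochondrial acetyl-CoA synthetase) and the secreted olfactomedin *Olfm1* were called higher in cKO CD103+CD11b- DCs and not called in control mice, with differences of -1.14, -1.46 and -1.61. The calls of *Slc25a26*, *Plcb3*, *Acss1* and *Olfm1* were each lost without replicate 1 or 2 of the control CD103+CD11b- libraries or replicate 1 of the cKO CD103+CD11b- libraries, with adjusted p up to 0.0923. *Arhgap26* was higher in control CD103-CD11b+ DCs (1.08) and had -0.27 in cKO mice, and its call was lost without replicate 1 of the control or of the cKO CD103+CD11b- libraries. *Eppk1* was called in opposite directions, at 2.90 in control and -1.42 in cKO mice, on 1.02 to 5.62 CPM in the cKO libraries. Its call in cKO mice was lost in 10 of 12 fits without 1 library, with DESeq2 (adjusted p = 0.0799), with no filter (0.103) and in the 6 cKO libraries alone (0.0892), and that of its difference in 6. The study's list of genes most affected by Cbfβ loss, which was chosen on these samples and so is not independent evidence, had 33 of 43 members higher in cKO CD103-CD11b+ DCs and 5 higher in CD103+CD11b- DCs, or 21 and 4 of the 29 tested when 5 or more counts were required in every cKO library. In control mice 11 were called on each side, and the difference was called for 22.

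**Figure D4:**
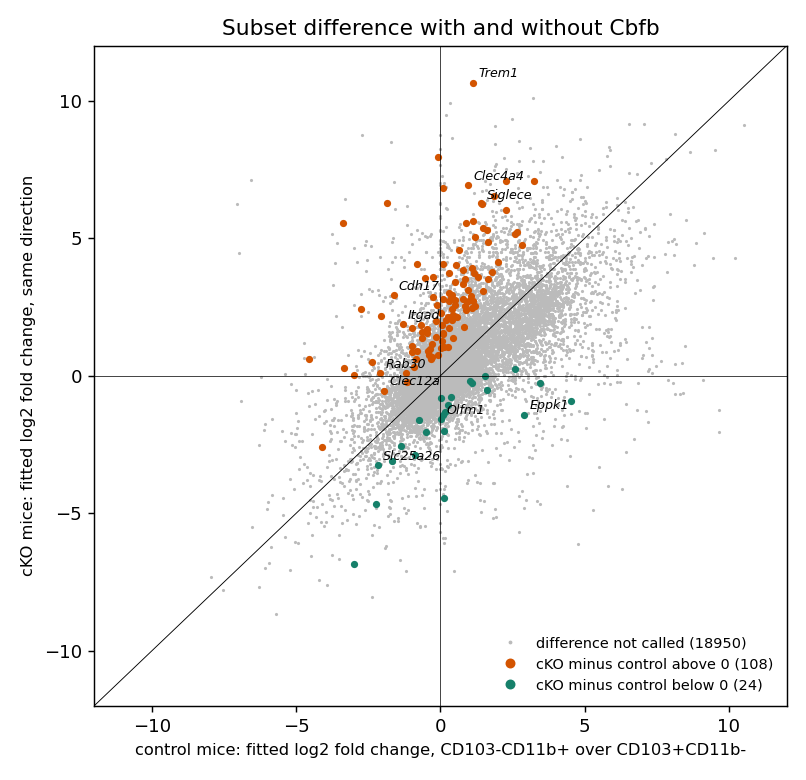
Fitted log2 fold change between the subsets in control mice (horizontal) and in Cbfb-cKO mice (vertical) for the 19082 tested genes. Orange and green points are the 108 and 24 genes whose difference between genotypes was called, and the diagonal marks equal values.

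**Figure D5:**
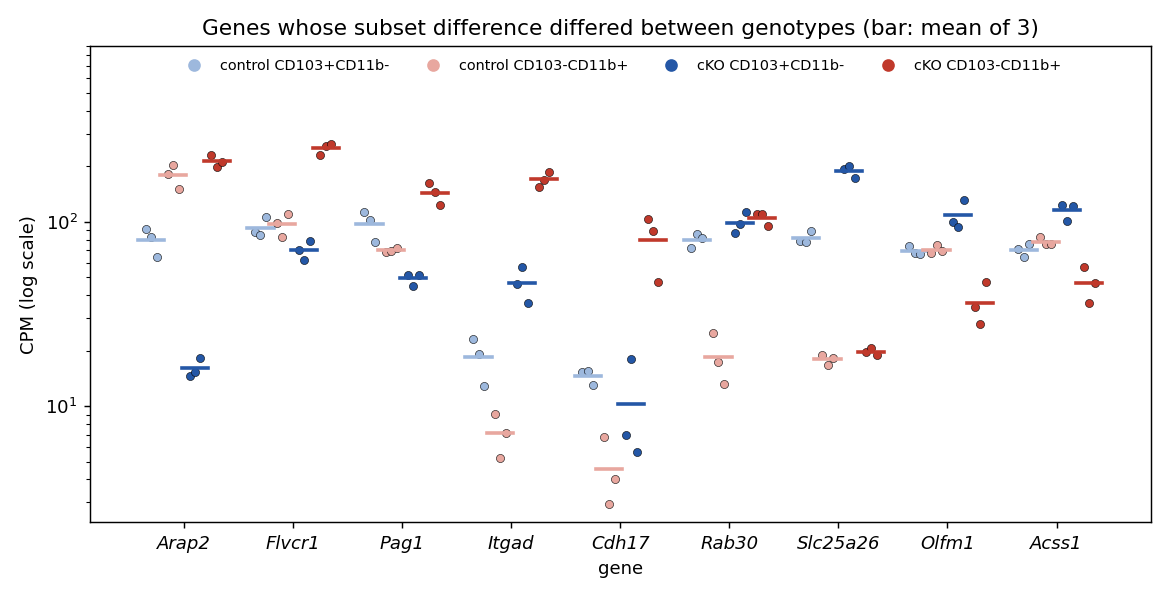
CPM on a log scale in all 12 libraries for 9 genes whose subset difference differed between genotypes. Each point is 1 library and each bar the mean of 3. *Itgad* and *Cdh17* change order between genotypes, *Rab30* has overlapping cKO groups, and *Slc25a26*, *Olfm1* and *Acss1* are highest in cKO CD103+CD11b- DCs.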

How the data were processed

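Libraries were made by the authors from total RNA of sorted cells with a RamDA-seq protocol adapted to bulk samples, sequenced as described in the study's methods, trimmed with Trim Galore, aligned with STAR 2.7 to mm10, stripped of duplicates and of reads with a mapping quality under 5, and counted per gene without strand by HTSeq. The authors deposited the resulting whole-number counts per gene, 1 table per library. The CASAVA 1.8, Trim Galore, STAR and HTSeq names also stand in the submitters' processing notes. Reads assigned to no gene (59.7% to 66.1% of each library's table) stayed out of library sizes and tests, and the 37 mitochondrial genes had no counts. Of 53801 genes listed, 53706 (99.82%) were named from GENCODE M21 (GRCm38).

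All 12 libraries were fitted in 1 model of 4 groups (2 genotypes by 2 subsets) with edgeR 4.0.16 in R 4.3.3, with TMM normalization, the quasi-likelihood test and Benjamini-Hochberg adjustment over 19082 genes, and the script was tested on simulated data. Intervals and floors of 3 counts cover counting error only. Whether both subsets of 1 number came from 1 mouse is not given in the sources used here, and p-values measure the spread between these samples. Same-numbered cKO libraries deviated together (r = 0.116, 0.336 and 0.366 over 19082 genes, against -0.329 to 0.0864 for other numbers), and sex-linked genes matched within each number, so a fit with the replicate number as a block was made. In control libraries the correlations of same numbers ran from -0.103 to 0.381, against -0.505 to 0.375 for other numbers. The block in 12 libraries thus pairs control libraries by numbers that these correlations do not set apart. Genes named are the 10 protein-coding genes with the smallest p in each direction, the 6 in each direction of the difference between genotypes, up to 4 members with the smallest p and the defining members of each gene list, and *Cbfb*, the Runx genes, *Il18*, *Il22ra2*, *Itgae*, *Itgam* and *Itgax*, and others were named after their values were seen. Members, lists and tests were chosen with earlier results of these data known. Alternatives were RLE normalization, DESeq2 1.42.0, the likelihood ratio test, other filters on low counts, stricter limits, the 6 cKO libraries alone, the replicate block, and leaving out each library. Some genes are not reported here. Figures were drawn with matplotlib 3.10.9.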

Additional observations from a re-analysis of the deposited data

Results flagged for a closer look

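For 132 genes the log2 fold change between the subsets differed between cKO and control mice by the interaction test of edgeR, and those among them that are named here are given with the difference (cKO minus control, log2 scale). Among genes with the smallest p between the cKO subsets, the difference was 2.57 for *Arap2*, 1.35 for *Chn2*, 1.92 for *Ddx58*, 1.77 for *Mndal* (an interferon-induced nuclear protein), 3.77 for *Clec4a2*, -1.06 for *Slc25a26* and -1.19 for *St3gal5*. Among the 6 genes with the smallest p above 0 it was 5.98 for *Clec4a4*, 2.03 for *Pag1*, 1.78 for *Flvcr1*, 3.18 for *Itgad* and 9.54 for *Trem1*. The values of *Trem1* and *Clec4a4* depend on the prior count, since cKO CD103+CD11b- libraries were at or near 0. Below 0, it was -1.14 for *Plcb3*, -1.35 for *Arhgap26*, -1.46 for *Acss1*, -4.32 for *Eppk1*, -1.61 for *Olfm1* and -2.42 for *Pianp* (a ligand of the receptor PILRα).

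Myeloid receptors formed a further group, with 3.24 for *Cd300a*, 3.85 for *Pilra*, 4.82 for *Siglece*, 4.65 for *Ccr1*, 2.71 for *Cd300lf*, 3.85 for *Treml2* and 1.41 for *Clec12a*. Genes of mediators, presentation and antiviral defence had 2.04 for *Cd1d1*, 3.70 for *Il1rn*, 2.89 for *Stra6l*, 4.53 for *Cyp4f18* (which inactivates leukotriene B4), 2.60 for *Oas1a*, 2.72 for *Hpgds* and 1.74 for *Hvcn1*. Among genes higher in CD103+CD11b- DCs of control mice were *Cdh17* with 4.57, *Rab30* with 2.19, *Tmeff1* with 2.88 and *Mpzl2* with 3.62. The calls of *Arap2*, *Chn2*, *Mndal*, *Clec4a2*, *Clec4a4*, *Pag1*, *Flvcr1*, *Itgad*, *Trem1*, *Pilra*, *Ccr1*, *Stra6l*, *Rab30* and *Tmeff1* held at these limits in each alternative fit that gave a value. Those of *Cd300a*, *Siglece*, *Cyp4f18*, *Cdh17* and *Mpzl2* were lost, among those fits, without replicate 1 of the cKO CD103+CD11b- libraries alone (adjusted p from 0.0543 to 0.0582), and each of the others was lost in 2 or more settings. *Oas1a* lost its call in 11 of 12 fits without 1 library, and *Ddx58*, *St3gal5*, *Cd300lf* and *Hvcn1* each in 10, and that of *Ddx58* was also lost with the replicate block (adjusted p = 0.0515) and with RLE normalization (0.0519). Stricter limits left 8 of the 132 at a false discovery rate of 0.01, and 5 with a fold over 5 as well.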

How the results depend on the processing

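No gene called between the cKO subsets changed sign in any alternative. RLE normalization, DESeq2, the likelihood ratio test, other filters and the 6 cKO libraries alone gave 1550 to 2697 genes higher in CD103-CD11b+ DCs and 1206 to 1760 higher in CD103+CD11b- DCs, within 1.5 times the counts of 1901 and 1648. With the replicate number as a block, 2592 and 2034 genes were called in 12 libraries and 3179 and 2307 in the 6 cKO libraries alone. At a false discovery rate of 0.01 the counts were 859 and 824, and 8 for the difference between genotypes. With a fold over 5 as well they were 399, 171 and 5. At the limits of the report, the counts without 1 library ran from 1188 to 2289 and from 1022 to 1680, lowest without replicate 1 of the cKO CD103+CD11b- libraries (1188 and 1022) and next without replicate 2 of the cKO CD103-CD11b+ libraries (1233 and 1062). The difference count of 132 was the least stable, at 508 with DESeq2, 446 with the likelihood ratio test and 301 with the replicate block, and from 29 to 219 without 1 library, moving by over 1.5 times for each library except replicate 3 of the control CD103+CD11b- libraries. Among named genes that were not called, *Mzb1* (1.39) ran from -0.17 to 1.87, *Runx1* from -0.11 to 0.30 and *Notch2* from -0.038 to 0.20 without 1 library, below 0 without replicate 1 (*Mzb1*) or 3 (the others) of the cKO CD103-CD11b+ libraries. The cause was not tested. At 2161929 to 5863484 counts per library, genes at a few CPM rested on a handful of reads. No RNA level of other cells was subtracted, and both subsets of 1 genotype share the deletion, so effects of Cbfβ loss common to both are not seen in the subset contrast.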

Other observations

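The genes that the study drew as most affected by Cbfβ loss were chosen on these samples, so their subset differences are given as values and support nothing. *Plet1*, a surface glycoprotein of epithelial and some myeloid cells, had 16.4, 10.2 and 21.9 CPM in cKO CD103-CD11b+ DCs and 0.673, 0.978 and 2.42 CPM in cKO CD103+CD11b- DCs, and its control means were 63.3 and 61.5 CPM in that order. *S100a6*, a calcium-binding protein, had 28.8, 26 and 32.2 and 5.61, 3.91 and 2.42 CPM in cKO mice. The fatty acid transporter gene *Slc27a2* had 26.4, 33.2 and 57.2 CPM in cKO CD103-CD11b+ DCs and 2 reads in all in the cKO CD103+CD11b- libraries. Members on the other side were few. The tight junction gene *Cldn1* had 6.96, 5.87 and 10.9 CPM in cKO CD103+CD11b- DCs and 1.55, 0.464 and 2.04 CPM in cKO CD103-CD11b+ DCs, and its control means were 50.4 and 7.76 CPM. *Gprc5c*, a retinoic acid induced receptor, had 96.8, 102 and 48 and 9.75, 11.1 and 8.68 CPM in cKO mice.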
